A study of Mus musculus with 6 samples.

Results

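Triglyceride is built in the liver by a short chain of acyltransferases and a phosphatase, and 10 genes of this chain were followed here: Gpat3, Gpat4 and Gpam for the first acylation, Agpat2 and Agpat3 for the second, Lpin1 and Lpin2 for the phosphatase step, Dgat1 and Dgat2 for the last acylation, and Mogat1 for the bypass from monoacylglycerol. They were found by gene symbol among the 20673 genes of the deposited tables, and all 10 were present. The list was chosen by values of the comparison described below, since it was drawn up around the rise of Gpat3, so the changes of the 10 genes between the diets are given as a description and carry no p-values. RNA came from livers of wild-type C57BL/6J mice. The control livers were from mice on RD, the regular diet, which is a cereal chow and is labelled as no treatment. The other livers were from mice fed HCD, the high-cholesterol diet, for 3 days. HCD is a diet with cocoa butter, added cholesterol and sodium cholate, so it differed from RD in fat and bile salt as well as in cholesterol, and these cannot be told apart. No liver of either group had been through surgery or infection, and the study used young adult mice of both sexes.

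Each diet had 3 libraries, and the totals ran from 13771630 to 23129576 counts. All p-values rest on the spread between these libraries, since no label states that each came from a different animal. The 3 HCD livers and the 3 RD livers all had Alb, the main hepatocyte secretory product, as the highest of the hepatocyte markers, at 39324 to 67645 FPKM (a level scaled to gene length and library size). The liver HCD 1 stood apart: it held 5032 counts of Xist, which was at 0 in the other 5 libraries, and 0 counts over 4 Y-linked genes that summed to between 1075 and 2666 counts in the others. This is the pattern of a female in HCD 1 and of males in the other 5, so values without HCD 1 are given beside the main results. Over the whole table, 428 of 13105 genes tested were called different between the diets (255 higher and 173 lower with HCD) in edgeR's quasi-likelihood test at a Benjamini-Hochberg adjusted p of 0.05. These are 3.27% of the genes tested, 1.95% higher and 1.32% lower. The split between directions depends on the scaling and on single livers: with library sizes alone it was 158 higher and 161 lower, without RD 1 it was 17 and 22, and without RD 2 it was 23 and 34.

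The glycerol-3-phosphate pathway works in order. GPAT enzymes put a fatty acyl chain on glycerol 3-phosphate to give lysophosphatidic acid, AGPAT enzymes add another to give phosphatidic acid, lipins remove the phosphate to give diacylglycerol, and DGAT enzymes add the last chain. Gpam encodes the GPAT of the outer mitochondrial membrane, and Gpat3 and Gpat4 encode GPATs of the endoplasmic reticulum. In hepatocytes the product is stored in lipid droplets or loaded onto very low density lipoprotein, and the same intermediates also feed the synthesis of membrane phospholipids.

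Both members called were GPAT genes. Gpat3 was higher and Gpam was lower with HCD, while Gpat4 was not called. Of the 9 members tested, these 2 were called, 1 in each direction, beside 3.27% of all genes (1.95% higher and 1.32% lower). Since the list was drawn up on this contrast, nothing is read from that count. The other 7 had log2 fold changes of at most 0.40 in size, and Mogat1 had too few counts to be tested. The median log2 fold change of the 9 members was 0.23, beside 0.0074 for all genes tested.

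**Figure D1:**
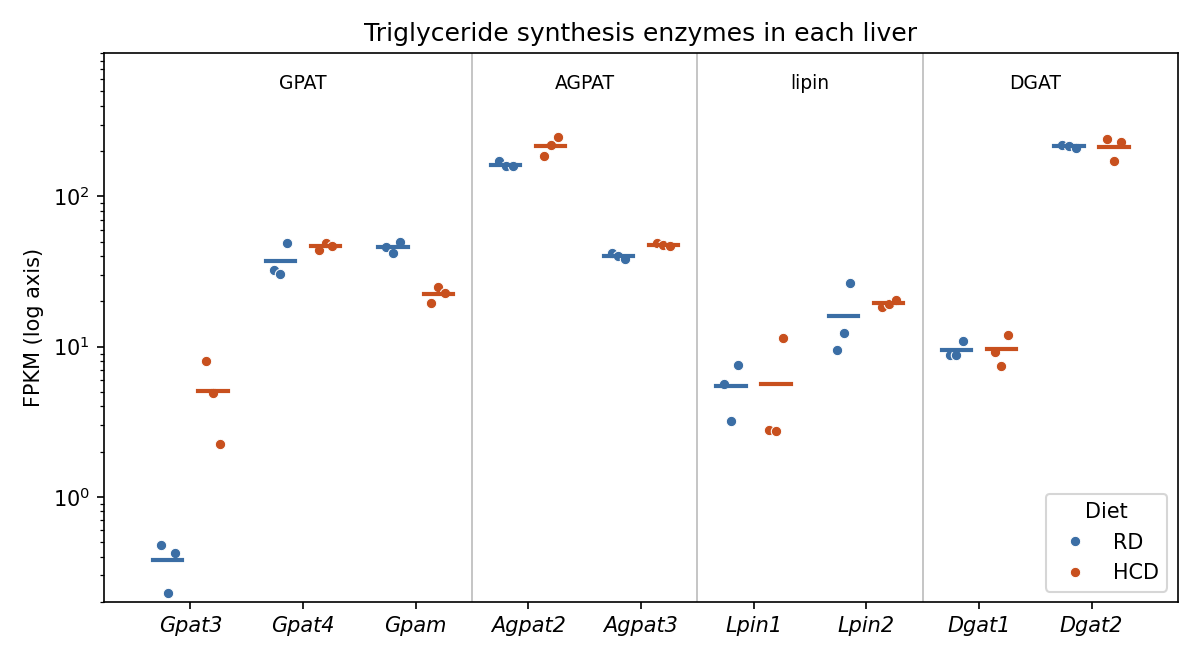
Level of 9 triglyceride synthesis genes in each liver, in FPKM on a log axis, with 1 point per liver (RD blue, HCD orange) and a bar at the mean of 3 livers; Mogat1, with 0 counts in some livers, is left out. Gpat3 lies below 0.5 FPKM in every RD liver and above 2 FPKM in every HCD liver, and Gpam is the gene whose HCD points all lie well below its RD points.

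Gpat3 was close to the floor of detection on RD. It had 24, 8 and 23 counts in RD 1, RD 2 and RD 3, against 366, 172 and 65 counts in HCD 1, HCD 2 and HCD 3. On the FPKM scale its level was 0.479, 0.229 and 0.426 with RD and 7.97, 4.90 and 2.26 with HCD. Every HCD liver was above every RD liver, and the HCD livers differed among themselves by more than the whole RD level. The means were 0.378 ± 0.132 FPKM with RD and 5.04 ± 2.86 FPKM with HCD (SD, n = 3 each). The fitted log2 fold change on the counts was 3.68 (SE 0.51), which is 12.9-fold. Without HCD 1, the liver with the highest value, the log2 fold change was 3.21. Gpat3 was no longer called without RD 1, where the log2 fold change was 3.88, or without RD 2, where it was 3.46. The small RD counts weigh on the size of the change: with 1 FPKM added before taking logs, the limma log2 difference was 2.02.

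Gpam fell in the opposite direction from a high level. Its FPKM was 46.1, 41.7 and 50.1 in the RD livers and 19.4, 25.0 and 22.6 in the HCD livers. The diets did not overlap, and the lowest RD liver was well above the highest HCD liver. The means were 45.9 ± 4.18 FPKM with RD and 22.3 ± 2.78 FPKM with HCD (SD, n = 3 each). The log2 fold change was -1.06 (SE 0.14), so the level with RD was 2.09 times that with HCD. Without HCD 1 it was -0.96, and Gpam was still called. The call was lost without RD 1 (-1.05), without RD 2 (-1.11) and without HCD 3 (-1.07), with the log2 fold change nearly the same.

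Gpat4 had 32.3, 30.5 and 49.0 FPKM in the RD livers and 43.8, 49.0 and 46.9 FPKM in the HCD livers. RD 3 was as high as the highest HCD liver, so the diets overlapped. The log2 fold change was 0.31 (SE 0.19), and Gpat4 was not called. The value was 0.53 (SE 0.16) without RD 3, 0.19 without RD 2 and 0.36 without HCD 1, and Gpat4 was called in none of these.

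The balance of the 3 GPAT transcripts therefore differed between the diets in every liver. Gpam made up 58.4%, 57.6% and 50.3% of the summed GPAT FPKM in RD 1, RD 2 and RD 3, and 27.3%, 31.7% and 31.5% in HCD 1, HCD 2 and HCD 3. Gpat4 made up 40.9%, 42.1% and 49.2% with RD and 61.5%, 62.1% and 65.4% with HCD. Gpat3 went from 0.608%, 0.316% and 0.429% to 11.2%, 6.21% and 3.14%. Among these 3 transcripts, by the deposited FPKM, Gpam was the most abundant in each RD liver and Gpat4 in each HCD liver. Gpat3 was the least abundant of the 3 in all 6 livers. The order with RD turns with the length given to Gpam. The annotation behind the deposited counts is not given, so they may not cover all exons of Gpam in GENCODE M21. With that exon length, Gpam made up 44.7%, 43.9% and 36.8% of the sum with RD and 17.7%, 21.05% and 20.9% with HCD. On that length Gpat4 led in all 6 livers, and the Gpam share was still lower in each HCD liver. The summed GPAT level overlapped between the diets, at 72.4 to 99.4 FPKM with RD and 71.2 to 78.9 FPKM with HCD. In HCD 1, where Gpat3 was highest, its distance in FPKM above the RD mean was still smaller than the distance of Gpam below its RD mean.

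**Figure D2:**
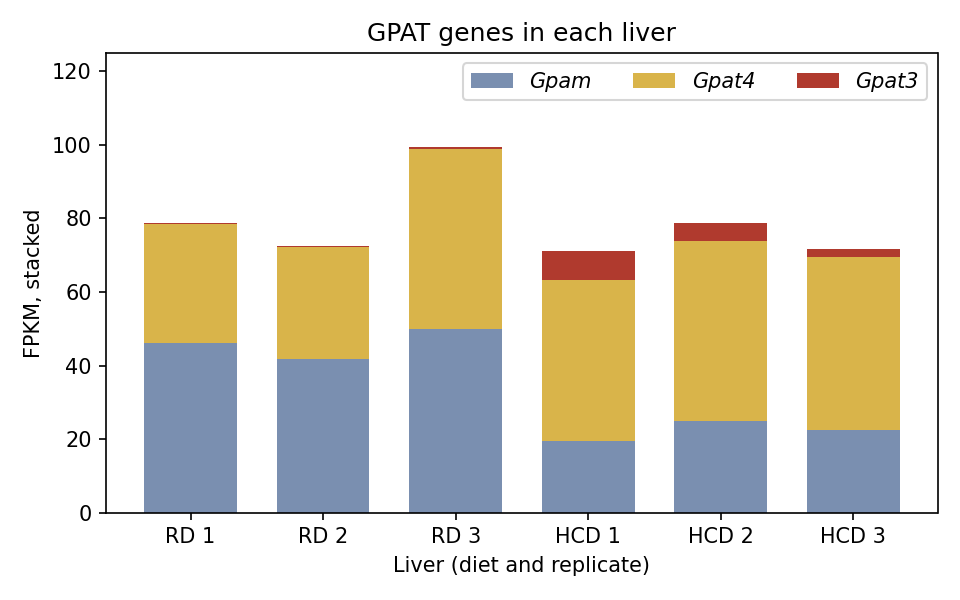
Stacked FPKM of Gpam, Gpat4 and Gpat3 in each of the 6 livers. The column heights overlap between the diets (72.4 to 99.4 FPKM with RD, 71.2 to 78.9 FPKM with HCD), while the Gpam part is smaller and the Gpat3 part larger in each HCD liver.

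Set as a ratio within a liver, which does not depend on the scaling between libraries, Gpat3 over Gpam was -6.99 ± 0.47 on the log2 scale with RD and -2.32 ± 1.02 with HCD (SD, n = 3 each). This is a difference of 4.67 between the diets, or 4.15 without HCD 1. Gpat4 over Gpam went from -0.33 ± 0.26 to 1.07 ± 0.10 on the same scale, a difference of 1.40 (1.35 without HCD 1), and no HCD liver overlapped an RD liver. Gpat3 over Gpat4 differed by 3.27, or 2.81 without HCD 1. The order of Gpam and Gpat4 on RD depends on the gene length used. The deposited Gpam FPKM implies a length of 3832 bases, whereas the exons of Gpam in GENCODE M21 cover 6664 bases, and for the other 9 members the lengths agree within 0.1%. With the M21 length, Gpam was at 0.821, 0.787 and 0.588 times the level of Gpat4 in the RD livers. Gpam would then come below Gpat4 there too, but only if the counts cover all the M21 exons. The difference of the ratio between the diets does not depend on that length.

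The stretches just before the starts of Gpat3 and Gpam are shown because these are the 2 members called in opposite directions. They are the 250 bases upstream of each start in RefSeq on GRCm38.p6, which lists 1 start for Gpat3 and 2 for Gpam, written 5′ to 3′ on the gene's strand. Capitals mark any match to 4 short motifs on either strand: the SRE core bound by SREBP factors (TCACNCCAC), the E-box (CACGTG), the CCAAT box (CCAAT) and the half-site of nuclear receptors (AGGTCA).
Gpat3, chr5:100845979-100846228, plus strand: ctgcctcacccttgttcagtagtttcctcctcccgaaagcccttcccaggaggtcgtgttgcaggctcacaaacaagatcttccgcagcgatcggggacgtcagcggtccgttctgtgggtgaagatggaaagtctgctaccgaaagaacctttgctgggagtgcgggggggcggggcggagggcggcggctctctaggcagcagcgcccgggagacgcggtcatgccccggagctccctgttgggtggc
Gpam, outer start, chr19:55127239-55127488, minus strand: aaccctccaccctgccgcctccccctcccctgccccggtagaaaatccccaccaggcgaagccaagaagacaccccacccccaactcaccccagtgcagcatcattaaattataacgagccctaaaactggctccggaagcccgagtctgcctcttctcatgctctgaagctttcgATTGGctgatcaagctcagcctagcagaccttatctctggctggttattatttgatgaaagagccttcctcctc
Gpam, inner start, chr19:55099478-55099727, minus strand: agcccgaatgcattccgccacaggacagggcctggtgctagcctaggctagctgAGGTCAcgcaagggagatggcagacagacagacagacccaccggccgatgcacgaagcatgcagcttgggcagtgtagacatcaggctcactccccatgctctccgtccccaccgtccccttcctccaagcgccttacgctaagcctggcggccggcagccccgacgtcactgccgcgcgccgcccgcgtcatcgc
The Gpat3 window held none of the 4 motifs. The outer Gpam window held 1 CCAAT box, here on the opposite strand, and the inner one held 1 nuclear receptor half-site. Of the 32851 mouse promoter windows of the same length, 33.8% held a CCAAT box, 14.0% a half-site, 6.02% an E-box and 1.05% the SRE core. The Gpat3 window was 64% G and C, and the Gpam windows were 54.8% (outer) and 66% (inner), beside a median of 52.4% over all windows. A count per gene does not tell which of the 2 Gpam starts was used.

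At the AGPAT step both genes were somewhat higher with HCD and neither was called. Agpat2, whose loss causes lipodystrophy, had 171, 159 and 159 FPKM in the RD livers and 184, 220 and 249 FPKM in the HCD livers. The diets did not overlap, with a log2 fold change of 0.40 (SE 0.16), or 0.51 without HCD 1. Agpat3 had 42.3, 40.0 and 38.4 FPKM with RD and 49.1, 47.5 and 46.8 FPKM with HCD. These also did not overlap, with a log2 fold change of 0.23 (SE 0.13), or 0.22 without HCD 1. In all, 4 of the 9 members tested (Gpat3, Gpam, Agpat2 and Agpat3) had diets that did not overlap in CPM (counts scaled to library size), beside 27.6% of all genes tested. Agpat2 was the main transcript of the pair in each liver, at 79.9% to 80.5% of their sum with RD (mean 80.2%) and 79.0% to 84.2% with HCD (mean 81.8%). The Agpat2 over Agpat3 ratio differed between the diets by 0.16 on the log2 scale, beside an SD of 0.25 among the HCD livers, and by 0.29 without HCD 1 and 0.041 without HCD 3.

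At the phosphatase step single livers decided the means. Lpin1 encodes a lipin that also acts as a transcriptional coactivator and responds to fasting, and it had 5.68, 3.18 and 7.60 FPKM in the RD livers and 2.79, 2.75 and 11.5 FPKM in the HCD livers. HCD 3 was the highest of the 6, and the other 2 HCD livers were the lowest. The log2 fold change of 0.02 (SE 0.55) thus averages livers that lay on both sides of the RD range. Without HCD 3 it was -1.001 and without HCD 1 it was 0.35, and Lpin1 was called in neither case. Lpin2, the more abundant lipin transcript in each of the 6 livers, had 9.50, 12.3 and 26.4 FPKM with RD and 18.3, 19.3 and 20.6 FPKM with HCD. RD 3 was above all HCD livers and the other 2 RD livers were below them. The log2 fold change was 0.26 (SE 0.32) with all livers, 0.79 without RD 3 and 0.31 without HCD 1. It was -0.0091 without RD 1 and 0.11 without RD 2. Lpin1 made up 37.4%, 20.5% and 22.4% of the sum of the pair with RD, and 13.3%, 12.5% and 35.9% with HCD, so the diets overlapped. The Lpin1 over Lpin2 ratio differed by -0.62 on the log2 scale, beside an SD of 1.11 among the HCD livers that is set by HCD 3 (-2.71, -2.81 and -0.84 in HCD 1, HCD 2 and HCD 3). The difference was -1.26 without HCD 3, and between -0.33 and -0.24 without HCD 1, HCD 2 or RD 1.

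**Figure D3:**
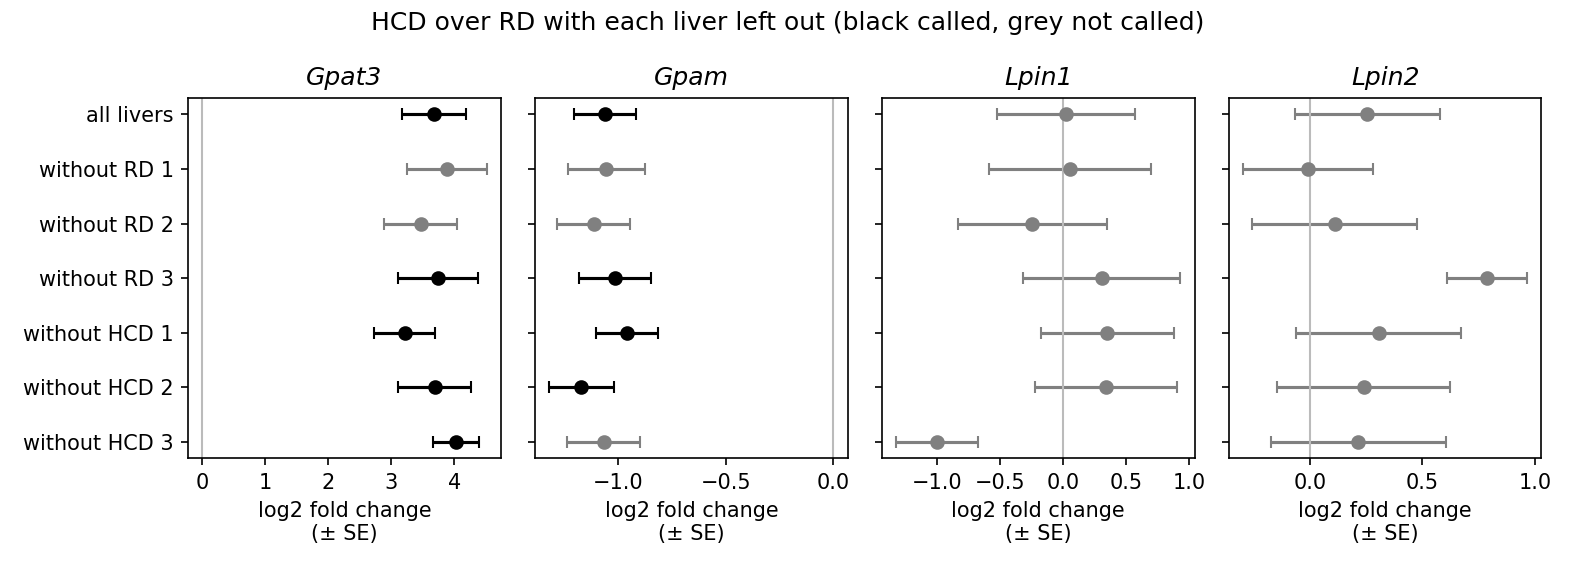
Fitted log2 fold change (HCD over RD, ± SE) of Gpat3, Gpam, Lpin1 and Lpin2 with all 6 livers and with each liver left out in turn; black points are called and grey points are not. Gpat3 stays between 3.21 and 4.03 and Gpam between -1.17 and -0.96, while Lpin1 moves to -1.001 without HCD 3 and Lpin2 to 0.79 without RD 3.

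At the last step the values of the diets overlapped for both genes. Dgat2, which encodes the DGAT tied mainly to newly made fatty acids, was the most abundant of the 10 members with RD. It had 219, 217 and 209 FPKM with RD and 243, 172 and 230 FPKM with HCD. The HCD livers lay on both sides of the RD livers, and the log2 fold change was -0.03 (SE 0.16), or -0.11 without HCD 1. Dgat1, which encodes a DGAT of a separate enzyme family, had 8.85, 8.74 and 10.9 FPKM with RD and 9.28, 7.44 and 12.0 FPKM with HCD. Its log2 fold change was -0.01 (SE 0.19), or 0.02 without HCD 1. Dgat2 made up 95.1% to 96.1% of the sum of the pair with RD and 95.0% to 96.3% with HCD. The Dgat1 over Dgat2 ratio differed between the diets by 0.01 on the log2 scale, where the SD was 0.21 among RD livers and 0.23 among HCD livers, and lay between -0.11 and 0.13 with 1 liver left out.

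Mogat1, the monoacylglycerol acyltransferase that makes diacylglycerol without the first steps, was barely detected. It had 4, 0 and 1 counts with RD and 6, 11 and 0 counts with HCD, and no fold change is given. Where Mogat1 was at 0, the depth allows a level of up to 0.218 CPM in RD 2 and 0.215 in HCD 3 (3 counts of the total, counting error only).

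**Figure D4:**
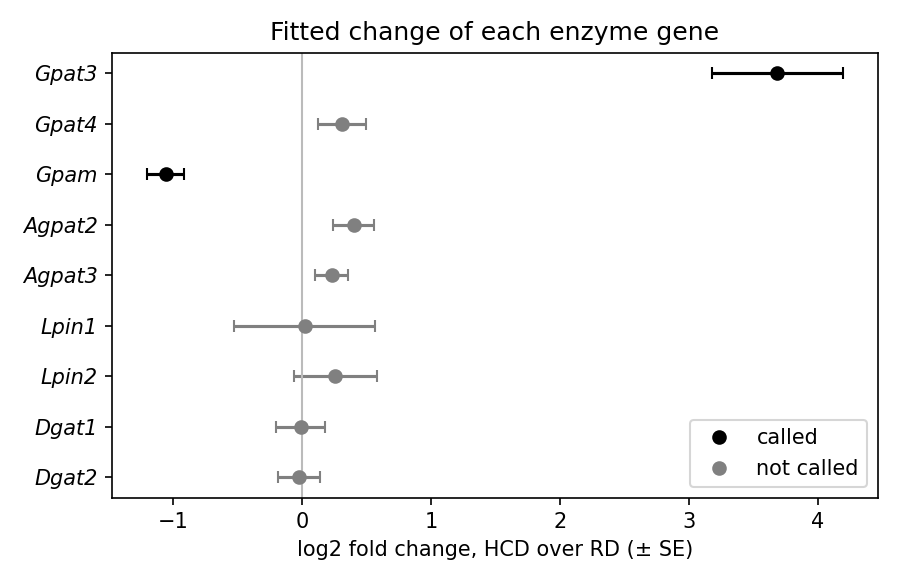
Fitted log2 fold change (HCD over RD) of the 9 members tested, with its SE from edgeR; black points are called and grey points are not. Gpat3 (3.68) and Gpam (-1.06) stand on opposite sides of 0, and the other 7 lie between -0.03 and 0.40.

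By FPKM on RD the order of the members was Dgat2, Agpat2, Gpam, Agpat3, Gpat4, Lpin2, Dgat1, Lpin1, Gpat3 and Mogat1. Gpam, Agpat3 and Gpat4 had overlapping RD ranges between neighbours, as did Lpin2 and Dgat1, and so these neighbours are not ordered beyond their spread. The other neighbours did not overlap over the 3 RD livers. The place of Gpam rests on the length behind its FPKM. Rescaled to the M21 exon length, which the counts may not cover in full, Gpam was at 26.5, 24.0 and 28.8 FPKM in the RD livers. That was below every RD value of Agpat3 and Gpat4, and the Gpam range then overlapped that of Lpin2.

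Some members share exon sequence with a neighbour in GENCODE M21. The exons of Gpat3 overlap those of the antisense gene 4930458D05Rik over 585 identical bases, and the sources used here do not give how counting treated strand. That gene had 2, 0 and 3 counts with RD and 4, 0 and 0 counts with HCD, far below the Gpat3 counts with HCD. Gm42987 also overlaps exons of Gpat3, on the same strand, BC035947 overlaps those of Mogat1 over 203 identical bases, and Gm40709 overlaps those of Agpat3; these were not analysed here. The exons of Agpat2 overlap those of Egfl7 on the opposite strand, which had 150 to 258 counts in the RD livers and 175 to 374 in the HCD livers, where Agpat2 had 3381 or more. No member shared a stretch of 200 bases at 90% identity with a gene outside its own locus.

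The genes whose course over the 6 livers was most like that of Gpat3 were Acot1, Acot2, Abcb1a, Inmt and Abcg8. They were the nearest of 9116 genes by the root mean square difference of centred log2 CPM, at 0.52, 0.52, 0.55, 0.60 and 0.61. Acot1 and Acot2 encode acyl-CoA thioesterases, Abcb1a a drug efflux pump and Inmt a methyltransferase. Acot1 had 5.39, 6.05 and 6.96 FPKM with RD and 41.3, 35.7 and 14.4 FPKM with HCD. Like Gpat3 it was highest in HCD 1 and lowest of the HCD livers in HCD 3. Abcg8, a subunit of the canalicular sterol exporter, had 187, 201 and 192 FPKM in the HCD livers and did not share that order. Acot1 and Acot2 are close paralogs, so their reads may be split between them. The order rests on HCD 1: over the other 5 livers 1 of these genes, Inmt, was among the nearest 5, and Acot1, Acot2, Abcb1a and Abcg8 came at places 8, 16, 17 and 7.

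Around the members, 8 lists of genes were read from the same fit, with 74 distinct genes tested. Only Srebf1 and Ces1d were called, both higher with HCD, beside 3.27% of all genes. Srebf1 encodes the SREBP-1 transcription factors of fatty acid and triglyceride synthesis. It was at 59.7, 45.5 and 71.4 FPKM with RD and 221, 262 and 308 FPKM with HCD, and every HCD liver was above every RD liver. Its log2 fold change was 2.14 (SE 0.21; edgeR adjusted p = 0.0041), and 2.27 without HCD 1. Gpam, a known target of SREBP-1, was lower in the same livers. The deposited data hold RNA alone, and a link between Srebf1 and Gpam was not tested. Srebf1 was the only regulator called of 12 tested, 10 of which had a fold change above 0, with a median log2 fold change of 0.15.

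Ces1d, a lipase-like carboxylesterase of the hepatocyte endoplasmic reticulum that mobilises stored triglyceride, was the gene called by edgeR among 9 triglyceride breakdown genes tested. DESeq2 also called Abhd5, the coactivator of adipose triglyceride lipase, which was lower with HCD (log2 fold change -0.97, SE 0.24; edgeR adjusted p = 0.068), with diets that did not overlap. Ces1d had 366, 393 and 299 FPKM with RD and 879, 769 and 541 FPKM with HCD. The log2 fold change of Ces1d was 1.02 (SE 0.22; edgeR adjusted p = 0.047). It was no longer called without HCD 1 (0.88) or in 9 other alternatives, and Ces1 genes are close paralogs whose reads may be split. The list as a whole had a median log2 fold change of -0.16, and only 2 of its 9 genes tested lay above 0.

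None of the 10 other enzymes of the same steps tested was called, and their median log2 fold change was 0.11. At an unadjusted p under 0.05 there were 4, and DESeq2 called 1, Agpat4, beside 1118 genes over the whole table. The share of all genes at that unadjusted threshold is not given here, so nothing is read from that count. By level the first among these 10 enzymes were the lipid phosphate phosphatase genes Plpp3 (log2 fold change -0.39, SE 0.30; edgeR adjusted p = 0.49) and Plpp2 (0.00304, SE 0.21; adjusted p = 0.99). The other acyltransferase genes of this list are given too, a choice made after their values were seen. Gpat2, a mitochondrial GPAT, had 0.479, 1.14 and 0.864 FPKM with RD and 2.03, 1.40 and 1.66 FPKM with HCD, and was not called (log2 fold change 1.02, SE 0.44; edgeR adjusted p = 0.23). Agpat1 had a log2 fold change of -0.60 (SE 0.23; edgeR adjusted p = 0.18). Agpat4 and Agpat5 had 1.84 (SE 0.56; edgeR adjusted p = 0.12) and 0.63 (SE 0.19; adjusted p = 0.11), at mean levels of 1.23 and 2.26 FPKM with HCD. Lclat1, at a mean of 11.5 FPKM over the 6 livers, had -0.12 (SE 0.19; edgeR adjusted p = 0.75), and Tmem68 had 0.11 (SE 0.21; adjusted p = 0.80). Mogat2, at 0 to 0.163 FPKM, was not tested. The third lipin gene, Lpin3, had 1.51 to 2.28 FPKM with RD and 1.59 to 2.48 FPKM with HCD.

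Of the 5 genes tested that supply glycerol 3-phosphate, none was called by edgeR, 3 had an unadjusted p under 0.05, and DESeq2 called 1, Gpd1. The unadjusted counts in this paragraph have no share of all genes beside them, and DESeq2 called 1118 genes over the whole table. Gpd1, which makes glycerol 3-phosphate from dihydroxyacetone phosphate, had 189, 187 and 134 FPKM with RD and 118, 105 and 126 FPKM with HCD (log2 fold change -0.57, SE 0.18; edgeR adjusted p = 0.12). Aqp9, the glycerol channel of hepatocytes, had -0.38 (SE 0.15; adjusted p = 0.20). None of the 8 acyl-CoA supply genes tested was called by edgeR or DESeq2, and 0 had an unadjusted p under 0.05 in edgeR. The fatty acid transport proteins Slc27a5 and Slc27a2 had log2 fold changes of -0.10 (SE 0.16; edgeR adjusted p = 0.77) and 0.25 (SE 0.17; adjusted p = 0.44). None of the 11 genes tested on the branches to phospholipids was called by edgeR or DESeq2, and 2 had an unadjusted p under 0.05 in edgeR. Those 2, named after their values were seen, were the diacylglycerol kinase genes Dgkq (log2 fold change -0.51, SE 0.20; edgeR adjusted p = 0.19) and Dgkz (-0.39, SE 0.15; adjusted p = 0.18). The most abundant of the list, the phospholipid synthesis genes Cept1 and Chpt1, had 0.30 (SE 0.18; edgeR adjusted p = 0.38) and 0.20 (SE 0.24; adjusted p = 0.68).

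The 10 fasting genes tested and the 10 clock genes tested had none called by edgeR either, with 1 and 7 at an unadjusted p under 0.05. The share of all genes at that threshold is not given here, so nothing is read from those counts. DESeq2 called Angptl4 of the fasting genes and 4 clock genes, Npas2, Per1, Per2 and Nr1d2, beside 1118 genes over the whole table. Without HCD 1 edgeR called 3 clock genes, Per1, Nr1d1 and Nr1d2, and 0 fasting genes, beside 342 genes over the whole table. Pck1, a gluconeogenic gene that rises on fasting, had 213, 678 and 1587 FPKM with RD and 855, 655 and 1389 FPKM with HCD, so it varied more within RD than between the diets. Tat, another such gene, was also highest in RD 3, at 2002 FPKM with RD against 393 in RD 1. Lpin1 was highest in RD 3 and HCD 3, as were Pck1 and Tat within their diets, whereas Igfbp1, G6pc, Pdk4 and Fgf21 of the same list were highest of the HCD livers in HCD 1, where Lpin1 was at 2.79 FPKM. Within RD, Igfbp1, G6pc and Pdk4 were highest in RD 3, as Lpin1 was, and Fgf21 was not. These genes were named after their values were seen. The clock list had a median log2 fold change of -0.46, with 3 of 10 genes above 0, and the median was also -0.46 without HCD 1. Nr1d1, a clock repressor, had 25.4, 28.7 and 16.4 FPKM with RD and 16.1, 3.82 and 4.78 FPKM with HCD (log2 fold change -1.54, SE 0.50; edgeR adjusted p = 0.13), while Tef had -0.19 (SE 0.14; adjusted p = 0.48). Both diets were fed ad libitum, and the study reports that mice on HCD ate modestly less over the feeding period. The sources used here give neither the time of day of collection nor whether food was withdrawn before it. The part of food intake or of either list in the lipin values was not tested.

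Bulk liver holds other cells, and in bulk RNA fewer cells of a type and less RNA per cell cannot be told apart. All 6 Kupffer cell markers had a fold change above 0 and none was called by edgeR (median log2 fold change 0.91). At an unadjusted p under 0.05 there were 3, and DESeq2 called 1, Cd5l, beside 1118 genes over the whole table. No share of all genes is given for the unadjusted counts in this paragraph, so nothing is read from them. Without HCD 1 the median of the Kupffer markers was 0.62, and 5 of the 6 were above 0. The summed level of these markers was 59.9, 72.2 and 111 FPKM in the RD livers and 214, 179 and 91.1 FPKM in the HCD livers. Cd5l was the highest of them by the mean over all livers, but with RD it was Clec4f, at a mean of 32.5 against 31.1 FPKM. The order of the sum among the 3 HCD livers was that of Gpat3. The part of these cells in the Gpat3 values was not tested. RD 3 had a higher Kupffer sum than HCD 3, at 111 against 91.1 FPKM, and a lower Gpat3 level, at 0.426 against 2.26 FPKM. Adipocytes express many of the 10 genes strongly. The summed adipocyte list, led by Lpl, was at 5.91 to 12.9 FPKM with RD and 9.37 to 10.9 FPKM with HCD, so the diets overlapped. Of its other genes, Fabp4 was at 0.825 to 2.89 FPKM and Cidec at 1.05 to 1.67 FPKM, and the defining markers Adipoq and Cfd were at 0 to 0.152 and 0 to 0.0827 FPKM. The part of adipocytes in the members' values was not tested. The 2 enterocyte genes tested, Fabp2 and Apoa4, both had an unadjusted p under 0.05 and were called by DESeq2, and the summed list did not overlap, at 95.4 to 122 FPKM with RD and 264 to 349 FPKM with HCD. By edgeR Fabp2 was called higher with HCD (log2 fold change 1.91, SE 0.18; edgeR adjusted p = 0.0030; 2.00 without HCD 1), and Apoa4 was not (0.74, SE 0.25; adjusted p = 0.14), with diets that did not overlap. Liver also expresses both genes. Of the 6 genes on the enterocyte list, 4 were among the deposited genes. Of these, Vil1 had 2, 2 and 0 counts with RD and 0, 5 and 8 counts with HCD, and Lct was at 0 except for 2 counts in HCD 2. The part of gut tissue in these values was not tested. Of the 6 hepatocyte markers none was called by edgeR, 2 had an unadjusted p under 0.05, and DESeq2 called Ttr higher and Fga lower with HCD. The adipocyte list and the remaining lists had no gene called by edgeR or DESeq2, and 1 stellate cell gene had an unadjusted p under 0.05 in edgeR. The summed FPKM of the remaining lists overlapped between the diets: 2.27 to 3.69 with RD and 2.36 to 5.04 with HCD for leukocytes, 28.0 to 52.1 and 33.9 to 56.0 for sinusoidal endothelial cells, 56.4 to 67.2 and 57.0 to 108 for stellate cells, 28.7 to 73.8 and 52.9 to 78.6 for cholangiocytes, and 13.1 to 17.0 and 4.97 to 15.0 for exocrine pancreas. These were led by S100a8, Clec4g, Dcn, Spp1 and Cela1.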

How the data were processed

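Liver RNA, isolated with an RNeasy kit, was sequenced in 3 RD and 3 HCD libraries, and groups were taken from the sample labels. The authors deposited raw counts per gene and FPKM values for 20673 genes; the submitters' processing notes name GRCm39, STAR, HTSeq, DESeq2 and edgeR, and the annotation, library kit and strand setting are not given in the sources used here. Counts were fitted with edgeR 4.0.16 (TMM factors 0.886 to 1.07, filterByExpr, diet as the only term, two-sided quasi-likelihood test, R 4.3.3). The deposited counts gave log2 fold changes and p-values, with the Benjamini-Hochberg adjustment taken over 13105 genes and calls made at 0.05. The deposited FPKM were used for levels and isoform shares; their sums run from 613897 to 892704 per library. Within-diet libraries differed by more than counting noise (chi-square per degree of freedom 30.8 to 157), so none was a copy.

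The members and lists were chosen with earlier results of these data known. Named were every member; called genes of each pathway list, up to 4, or otherwise the 2 with the highest mean FPKM; the highest marker of each cell type; and the 5 tested genes most like Gpat3, among those averaging 5 CPM or more, on log2(CPM + 0.5). Alternatives used DESeq2 1.42.0, limma 3.58.1 on log2(FPKM + 1) and log2(FPKM + 0.1), other scalings and filters, a length-trend correction, a replicate block, and each library left out. Shared sequence was searched with minimap2 2.31 in GENCODE M21 on GRCm38, another build than the files', so only names and lengths were taken from it. Promoter sequences are from a table of RefSeq starts (GRCm38.p6), in which 7 of the 10 members matched. The FPKM table also holds the authors' own fold changes and p-values, which were not used.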

Additional observations from a re-analysis of the deposited data

How the results depend on the processing

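Gpat3 and Gpam kept their direction in all 16 alternatives and were called in all 10 that used the 6 livers. The number of members called was 0 to 2 with 1 liver left out (0 without RD 1 and without RD 2, and 1 without HCD 3), and the other 7 members were called in none. Over the whole table, in place of 428 genes, DESeq2 called 1118, the test with no filter on low counts 649, the length-trend correction 255 and the replicate block 136; leaving out 1 liver gave 39 to 387 genes, with 39 without RD 1, 57 without RD 2, 146 without RD 3 and 104 without HCD 3. Of the pathway genes, in place of 2, DESeq2 called 10 and the test with no filter 8, while library sizes alone, limma on FPKM with either added value, the length-trend correction and the replicate block called 1 each; leaving out 1 liver gave 1 to 4. The Agpat2 over Agpat3 difference became -0.050 with the length-trend correction. The Gpam over Gpat4 log2 ratio with RD was 0.33 and became -0.47 with M21 exon lengths, an alternative chosen after seeing the data, as were the likeness to Gpat3 and the list medians without HCD 1. The log2 fold changes of Lpin1 (0.02), Lpin2 (0.26), Dgat1 (-0.01) and Dgat2 (-0.03) changed sign in some alternatives. The cause of these shifts was not tested. Deviations of same-numbered RD and HCD livers from their diet means correlated at -0.08, 0.12 and -0.03, and not every liver correlated best with its own number. With 3 livers per diet this check cannot exclude a pairing of the libraries. With the replicate block 2 members were called. Depth limits Gpat3 with RD (8 to 24 counts) and Mogat1.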
